A study of Mus musculus with 5 samples.

Results

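The genes of the surface markers that define LSK cells (lineage-negative, Sca-1-positive, Kit-positive marrow cells) and their multipotent progenitor (MPP) subsets were examined in RNA-seq counts from bone marrow of mice at postnatal day 15. Kit, Ly6a, Cd34, Flt3, Cd48, Slamf1 and Cd27 were taken by symbol. An eighth listed name, Slamf2, is a synonym of Cd48, so that 8 names gave 7 genes of 39056 in the table. Both groups were on a C57BL/6 background: the mutant group held 3 libraries from Gabbr1 null mice, which lack a subunit of the GABA-B receptor, and the control group held 2 libraries from wild-type (WT) mice. Each library came from about 12000 sorted cells of the LSK population. The labels do not give the mutated allele, the sex or litter of the mice, the day of the sort, or whether a library came from 1 animal, so that the spread behind each p-value is one between libraries and may be technical.

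Sorting by KIT and Sca-1 gathers stem cells with the progenitors that follow them, and the other markers divide that pool. KIT and FLT3 are receptor tyrosine kinases for stem cell factor and FLT3 ligand, and high FLT3 marks the lymphoid-biased MPP subset. CD150, the product of Slamf1, marks long-term stem cells and a megakaryocyte-erythroid-biased subset, while CD48 is low on stem cells and present on most progenitors. CD34 is a sialomucin that appears in the adult mouse as stem cells become progenitors, while the mice here were at postnatal day 15. CD27 is a receptor of the TNF family found on most progenitors with short-term potential and on lymphocytes. A gate selects protein on the cell surface, and the counts measure RNA.

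None of the 7 genes passed the test between genotypes, and 6 of them had a lower fitted level in Gabbr1 null libraries, where 50.8% of all genes tested had one. For 4 genes, Kit, Cd34, Flt3 and Cd27, each null library lay below both WT libraries, as for 13.7% of all genes tested (29.2% did not overlap in either direction). Cd27 had the lowest adjusted p, at 104 ± 8.51 CPM in null (SD, n = 3) and 140 ± 2.19 CPM in WT (SD, n = 2). Slamf1 alone had a higher fitted level in null libraries, from few reads. CPM are read counts relative to library size after scaling with TMM factors, and a gene passed at a Benjamini-Hochberg adjusted p under 0.05 in edgeR's quasi-likelihood test across 13467 genes.

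The promoters of Kit, Cd34, Flt3 and Cd27 are shown because these are the 4 markers without overlap between genotypes, a choice made after their values were seen. Each run covers 250 bases before and 50 bases from the start of the RefSeq gene on GRCm38.p6, 5′ to 3′ on the gene's strand. The windows are chr5:75574737-75575036 on the plus strand for Kit, chr1:194938571-194938870 on the plus strand for Cd34, chr5:147400440-147400739 on the minus strand for Flt3 and chr6:125236978-125237277 on the minus strand for Cd27. Capitals mark matches, on either strand, to 3 short motifs of factors that act in blood progenitors: TGTGGT for RUNX, AGGAAG for ETS and AGATAA for GATA factors.
Kit: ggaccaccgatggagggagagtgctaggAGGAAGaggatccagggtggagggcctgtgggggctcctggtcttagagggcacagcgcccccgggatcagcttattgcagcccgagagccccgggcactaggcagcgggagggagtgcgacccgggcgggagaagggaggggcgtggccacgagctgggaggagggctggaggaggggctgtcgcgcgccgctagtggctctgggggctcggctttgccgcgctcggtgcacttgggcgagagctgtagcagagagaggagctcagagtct
Cd34: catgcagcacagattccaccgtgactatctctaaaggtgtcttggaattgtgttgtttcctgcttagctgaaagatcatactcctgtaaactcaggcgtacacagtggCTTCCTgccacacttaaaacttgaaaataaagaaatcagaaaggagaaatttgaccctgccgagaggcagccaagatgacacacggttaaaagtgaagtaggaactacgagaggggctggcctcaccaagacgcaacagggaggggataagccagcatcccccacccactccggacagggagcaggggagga
Flt3: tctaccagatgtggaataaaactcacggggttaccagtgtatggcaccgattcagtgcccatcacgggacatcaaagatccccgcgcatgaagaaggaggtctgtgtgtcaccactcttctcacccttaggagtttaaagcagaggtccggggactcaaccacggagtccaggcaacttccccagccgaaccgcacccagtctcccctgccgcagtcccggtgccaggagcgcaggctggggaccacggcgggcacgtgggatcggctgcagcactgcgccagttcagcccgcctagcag
Cd27: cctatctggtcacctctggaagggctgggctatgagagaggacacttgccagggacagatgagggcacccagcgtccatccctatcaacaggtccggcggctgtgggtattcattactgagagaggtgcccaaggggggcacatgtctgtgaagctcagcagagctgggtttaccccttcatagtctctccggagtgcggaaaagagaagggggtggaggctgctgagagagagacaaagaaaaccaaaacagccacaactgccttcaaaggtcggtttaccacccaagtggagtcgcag

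The AGGAAG letters stood once in the Kit window, starting at -222 from the start site, and once on the opposite strand in the Cd34 window, starting at -142. The Flt3 and Cd27 windows held none of the 3 motifs in these letters. Over 27025 gene promoters of the same length, 35.1% held AGGAAG, 16.9% held TGTGGT and 11.4% held AGATAA. Promoters were matched for 6 of the 7 genes. In the Cd48 window AGGAAG and TGTGGT stood once each, and in the Slamf1 window AGGAAG stood 2 times. A match is a description of the letters and not of binding.

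Total counts per library lay between 7530382 and 8150774 in null and were 7980630 and 6972753 in WT, so that 1 CPM stood for 6.97 to 8.15 counts before the TMM scaling. Gabbr1 itself had 289, 264 and 268 counts in null libraries and 402 and 403 in WT libraries, and fell by 0.59 log2 units (SE 0.13; adjusted p = 0.0361 in edgeR). That call was lost without null library 2, null library 3, WT library 1 or WT library 2 (edgeR adjusted p = 0.0802, 0.137, 0.0722 and 0.380), and counts over the whole gene cannot check a deletion of unknown position. Null library 1 stood apart: it had 22532 counts of Xist and 0 counts over the Y-linked genes Ddx3y, Eif2s3y, Kdm5d and Uty together, against at most 21 and at least 1140 in the other libraries, and it had the highest summed level of neutrophil markers. By the counts of Xist and the Y-linked genes, null library 1 was female and the other libraries were male, so sex was not balanced between the genotypes. Results are therefore also given without null library 1, which leaves male libraries only.

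On a scale of CPM per kb of annotated exons, which allows levels to be compared between genes, the order of the markers was nearly the same in all 5 libraries. Flt3 stood highest, at 126 ± 6.09 in null (SD, n = 3) and 154 ± 2.48 in WT (SD, n = 2). Cd34 followed with 103 ± 5.39 in null and 132 ± 9.90 in WT, Kit with 102 ± 7.44 in null and 115 ± 4.24 in WT, and Cd48 with 93.3 ± 10.7 in null and 99.5 ± 10.3 in WT.

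Cd34, Kit and Cd48 lay within their spread of each other in null libraries and changed places there: Kit was behind Flt3 alone in null library 2 and behind Flt3, Cd34 and Cd48 in null library 3. Cd27 followed in every library, at 44.9 ± 3.66 in null and 60.2 ± 0.941 in WT. Ly6a came next to last in every library, at 18.5 ± 7.13 in null and 23.7 ± 2.05 in WT. Slamf1 was last in every library, at 1.40 ± 0.356 in null and 0.927 ± 0.293 in WT.

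The markers thus spanned a wide range of transcript level inside the sorted population. Flt3, Cd34, Kit and Cd48 lay at percentiles 98.1, 97.7, 97.6 and 97.2 of level per exon length among the genes tested. Cd27 lay at percentile 93.9, Ly6a at 80.4 and Slamf1 at 14.1. Exon lengths are the union over annotated transcripts, from 1189 bases for Cd48 to 8911 for Kit, so a gene whose cells use short transcripts is set too low on this scale.

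**Figure D1:**
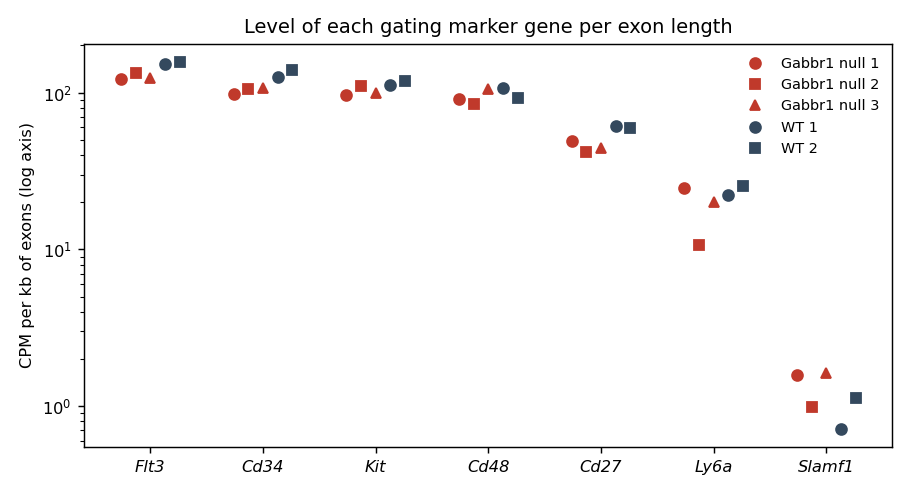
Level of each marker gene in CPM per kb of exons (vertical, log axis), with 1 point per library, red for Gabbr1 null and dark blue for WT. Flt3, Cd34, Kit and Cd48 lay between 83.9 and 156, and Slamf1 lay between 0.720 and 1.62.

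Kit and Ly6a encode the markers of the LSK gate itself. Kit (ENSMUSG00000005672.12, mm10 chromosome 5, 75574916 to 75656722, plus strand) encodes the receptor for stem cell factor. It had 864, 987 and 883 CPM in null libraries 1, 2 and 3, against 995 and 1049 CPM in WT libraries 1 and 2. All null libraries were below both WT libraries, with null library 2 closest to the WT range. The log2 fold change was -0.16 ± 0.12 (SE; 95% interval -0.43 to 0.10) and missed the threshold (adjusted p = 0.643, edgeR). In these bulk libraries, fewer cells of a type and less RNA per cell cannot be told apart.

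Ly6a (ENSMUSG00000075602.10, chromosome 15, 74994877 to 74998031, minus strand) encodes Sca-1, a GPI-anchored protein of the Ly6 family. It had 29.9, 12.9 and 24.0 CPM in null libraries, against 26.8 and 30.3 CPM in WT libraries. Null library 2 was low, with 98 counts, and null library 1 lay within the WT range, so the groups overlapped. Null over WT, the log2 fold change was -0.36 ± 0.26 (SE; 95% interval -0.93 to 0.22) and missed the threshold (adjusted p = 0.644, edgeR). It moved to -0.62 without null library 1 and to -0.08 without null library 2. The highest null library had 2.31 times the Ly6a level of the lowest, where the median of 2604 genes of like level was 1.22 times. The neighbour I830127L07Rik, which RefSeq names Ly6a2, had 68, 18 and 5 counts in null libraries and 3 and 5 in WT libraries, and reads that match several Ly6 genes could have been split or dropped in counting.

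Among the markers that divide the LSK pool, Cd34 (ENSMUSG00000016494.9, chromosome 1, 194938819 to 194961279, plus strand) had 708, 770 and 781 CPM in null libraries, against 913 and 1016 CPM in WT libraries. The groups did not overlap, and the gap between them was wider than the range within null libraries. The log2 fold change was -0.36 ± 0.12 (SE; 95% interval -0.62 to -0.09) and did not pass in edgeR (adjusted p = 0.200). DESeq2 called it lower (adjusted p = 0.0372). Over the other 11 alternative fits the adjusted p ran up to 0.607, and Cd34 passed in none of them. An antisense gene, Gm16897, shares 148 of the 7290 exon bases of Cd34, and whether reads were counted by strand is unknown here.

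Flt3 (ENSMUSG00000042817.15, chromosome 5, 147330741 to 147400489, minus strand) encodes the receptor for FLT3 ligand. It had 751, 822 and 765 CPM in null libraries, against 941 and 962 CPM in WT libraries. No null library reached either WT library. This gave a log2 fold change of -0.29 ± 0.12 (SE; 95% interval -0.54 to -0.03), which missed the threshold (adjusted p = 0.318, edgeR), nor in any of 12 alternative fits, in which the adjusted p was between 0.115 and 0.643.

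Cd27 (ENSMUSG00000030336.14, chromosome 6, 125232622 to 125237010, minus strand) had 114, 97.1 and 102 CPM in null libraries, against 142 and 139 CPM in WT libraries. The WT libraries lay close together, and each null library was below them. The log2 fold change was -0.42 ± 0.11 (SE; 95% interval -0.66 to -0.19) and did not pass in edgeR (adjusted p = 0.0690). It passed in DESeq2 (adjusted p = 0.0458) and in edgeR with no filter on low counts (adjusted p = 0.0177, with 0.652% of all genes lower), and in none of the other 10 alternative fits, where the adjusted p ran up to 0.292. The microRNA gene Mir8113 lies on the same strand and shares 129 of the 2328 exon bases of Cd27.

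Cd48 and Slamf1 encode a pair of SLAM family receptors that are read together in the gate. Cd48 (ENSMUSG00000015355.13, chromosome 1, 171682009 to 171705258, plus strand), a GPI-anchored ligand of other SLAM proteins, had 108, 99.8 and 125 CPM in null libraries, against 127 and 110 CPM in WT libraries. The groups overlapped. On the log2 scale the fold change was -0.09 ± 0.12 (SE; 95% interval -0.36 to 0.18) and missed the threshold (adjusted p = 0.833, edgeR), and its sign changed to 0.006 without WT library 1. Of the 7 genes it had the smallest difference.

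Slamf1 (ENSMUSG00000015316.11, chromosome 1, 171767127 to 171801184, plus strand) encodes CD150. It had 9.73, 6.07 and 9.99 CPM in null libraries, against 4.43 and 6.98 CPM in WT libraries, from 73, 46 and 81 counts in null and 36 and 49 counts in WT. Null library 2 lay between the WT libraries, and the others lay above them. The log2 fold change was 0.60 ± 0.31 (SE; 95% interval -0.08 to 1.28) and missed the threshold (adjusted p = 0.461, edgeR). It was between 0.29 without WT library 1 and 0.95 without WT library 2.

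**Figure D2:**
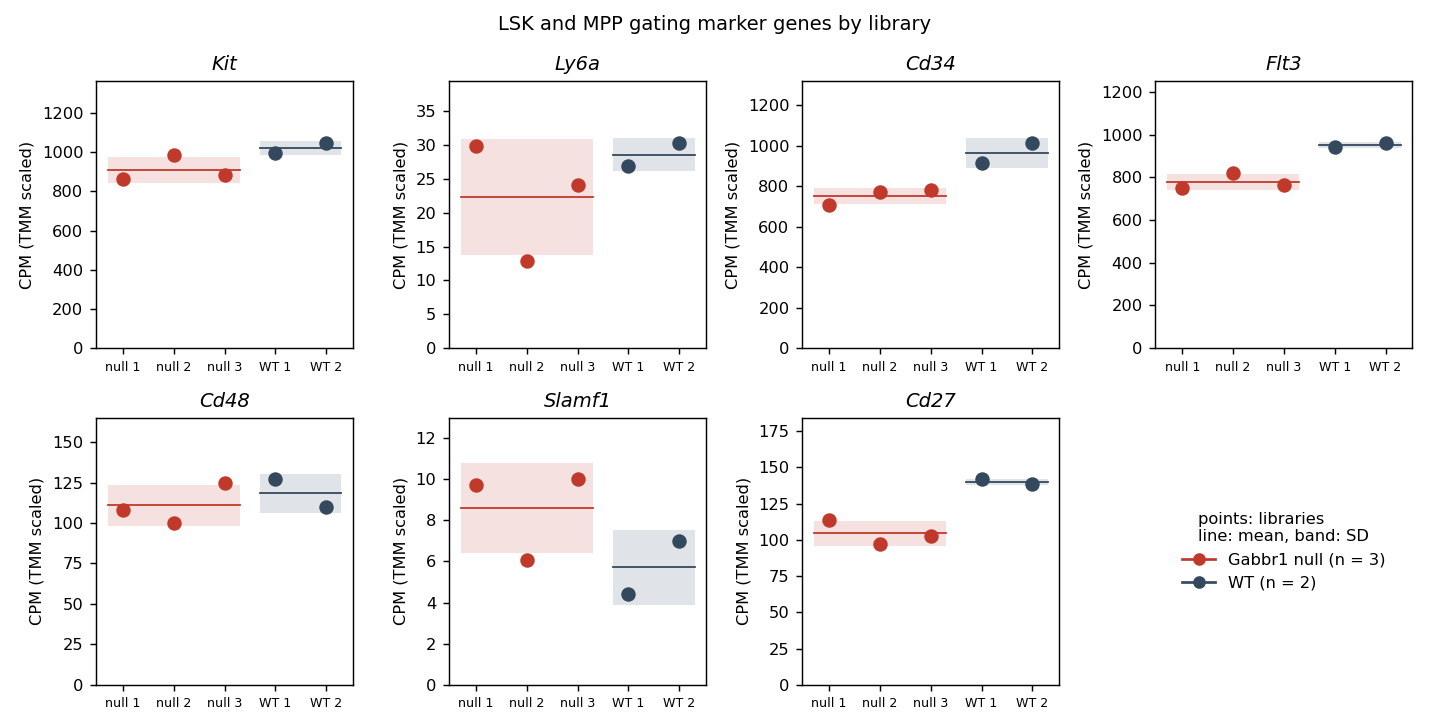
CPM of each marker gene (vertical axes, each from 0) in the 3 Gabbr1 null and 2 WT libraries, with 1 point per library, a line at the group mean and a band of 1 SD. The groups do not overlap for Kit, Cd34, Flt3 and Cd27 and overlap for Ly6a, Cd48 and Slamf1. For Kit the gap is narrow, between 987 CPM in null library 2 and 995 CPM in WT library 1.

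In counts, 0 of the 7 genes were called higher and 0 lower in edgeR, where 2.48% of all genes tested were called (2.15% higher and 0.334% lower). By the p before adjustment, with the same threshold of 0.05, 0 were higher and 3 lower (Cd34, Flt3 and Cd27), against 7.99% and 4.84% of all genes. DESeq2 called 0 higher and 2 lower, where it called 2.5% and 0.379% of genes, and limma-voom called 0 and 0. All 7 genes had passed the filter on low counts, which did not use the direction of a difference. The values of 4 genes were lower in null with no overlap between groups and 0 were higher with no overlap, against 13.7% and 15.5% of all genes tested. Without null library 1, 5 were lower with no overlap, against 19.2% of all genes, and again 0 passed in edgeR. The median log2 fold change of the 7 genes was -0.29, and -0.26 without null library 1, where the median of all 13467 genes was -0.004. As a share of all counts, with no scaling, the 7 genes together took 0.249%, 0.281% and 0.268% in null libraries, against 0.321% and 0.334% in WT libraries.

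**Figure D3:**
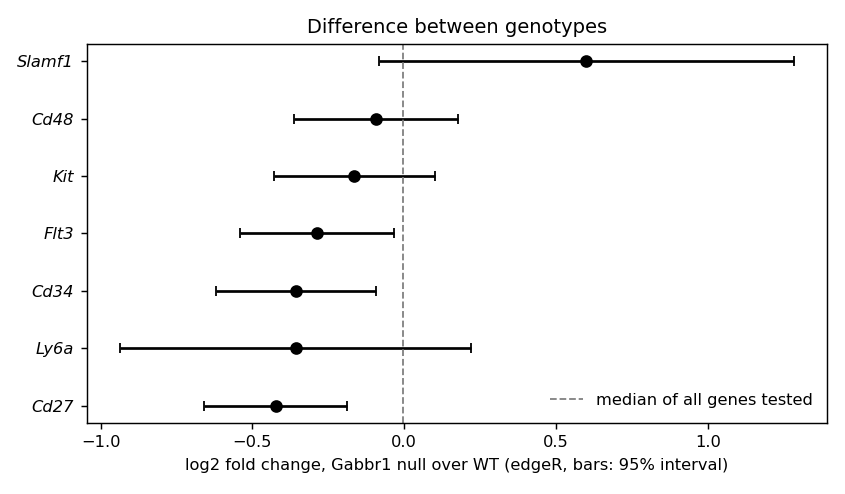
Log2 fold change of each marker gene, Gabbr1 null over WT (horizontal axis; points are edgeR estimates and bars are 95% intervals before adjustment for multiple tests). The intervals of Cd27, Cd34 and Flt3 lie below 0, and those of Slamf1, Cd48, Kit and Ly6a include 0.

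Ratios of markers within a library do not depend on the scaling between libraries, and are given as descriptions on the scale of levels per exon length. Flt3 was 1.25, 1.20 and 1.25 times Kit in null libraries, against 1.36 and 1.32 times in WT libraries. Cd34 was 1.00, 0.953 and 1.08 times Kit in null libraries, against 1.12 and 1.18 times in WT libraries. Thus both subset markers were lower relative to Kit in each null library. How often a ratio of other genes separates in this way was not tested, while 29.2% of single genes tested did not overlap in either direction. Ly6a was 0.255, 0.097 and 0.201 times Kit in null libraries, against 0.199 and 0.214 times in WT libraries, and overlapped. Cd27 was 0.504, 0.377 and 0.444 times Kit in null libraries, against 0.545 and 0.506 times in WT libraries, where null library 1 came close to WT library 2. Flt3 was 77.0, 135 and 76.4 times Slamf1 in null libraries, against 212 and 137 times in WT libraries. Cd48 was 57.6, 85.1 and 64.8 times Slamf1 in null libraries, against 148 and 81.4 times in WT libraries, and these ranges overlapped.

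Within the null group, Kit, Cd34 and Flt3 varied less than the median gene of like level, and the other markers varied more. The highest null library had 1.14 times the lowest for Kit, 1.10 times for Cd34 and 1.09 times for Flt3, where the median of genes of like level was 1.20, 1.16 and 1.16 times. It had 2.31 times the lowest for Ly6a, 1.65 times for Slamf1, 1.25 times for Cd48 and 1.17 times for Cd27, where that median was 1.22, 1.42, 1.13 and 1.12 times. Of the 3 null libraries, library 2 had the lowest level of Ly6a, Cd48, Slamf1 and Cd27 and the highest of Kit and Flt3.

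Slamf1 and Cd27 had the largest absolute log2 fold changes of the 7. For each, the genes with the most similar course over the 5 libraries were found by the root mean square difference of log2 level, centred on each gene's mean, among genes of at least 20 CPM. For Slamf1 these were Cdkn2d, Sapcd2 and Asf1b, with differences of 0.127, 0.144 and 0.160, where the median of 7999 genes was 0.432. Asf1b, a histone chaperone gene, was the only one of these that passed (log2 fold change 0.73, edgeR adjusted p = 0.0287), and it was lost without null library 1, null library 3, WT library 1 or WT library 2 (edgeR adjusted p = 0.0539, 0.0863, 0.189 and 0.170). For Cd27 they were Bsdc1, Dbp and Pou2f2, with differences of 0.0345, 0.0497 and 0.0515, where the median of 7998 genes was 0.250, and none of the 3 passed in edgeR (adjusted p = 0.213, 0.189 and 0.296).

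Other genes of the SLAM locus differed strongly where Cd48 and Slamf1 did not pass. Slamf7 (chromosome 1, 171632403 to 171653035), the neighbour of Cd48 and a receptor of lymphoid and myeloid cells, had 32.4, 27.7 and 27.9 CPM in null libraries, against 3.57 and 2.71 CPM in WT libraries. Slamf7 rose by 3.21 ± 0.22 log2 units (SE; adjusted p = 4.19e-05 in edgeR), and passed in all 12 alternative fits. Slamf6 (chromosome 1, 171917515 to 171953170), a receptor of lymphocytes, had 46.8, 27.2 and 41.4 CPM in null libraries, against 8.37 and 3.85 CPM in WT libraries.

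Slamf6 rose by 2.63 ± 0.31 log2 units (SE; adjusted p = 0.000884 in edgeR), which did not hold when WT library 2 was left out (edgeR adjusted p = 0.0695). Of 13 genes of the SLAM family and its adaptors, 9 were tested, with a median log2 fold change of 0.32. Of these, 2 were higher and 0 lower in edgeR, where 2.15% and 0.334% of all genes tested were. The genes Ly9, Cd84, Cd244a, Fyn and Sh2d1b1 did not pass (edgeR adjusted p = 0.998, 0.754, 0.284, 0.599 and 0.401). Without null library 1 the counts were also 2 and 0.

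**Figure D4:**
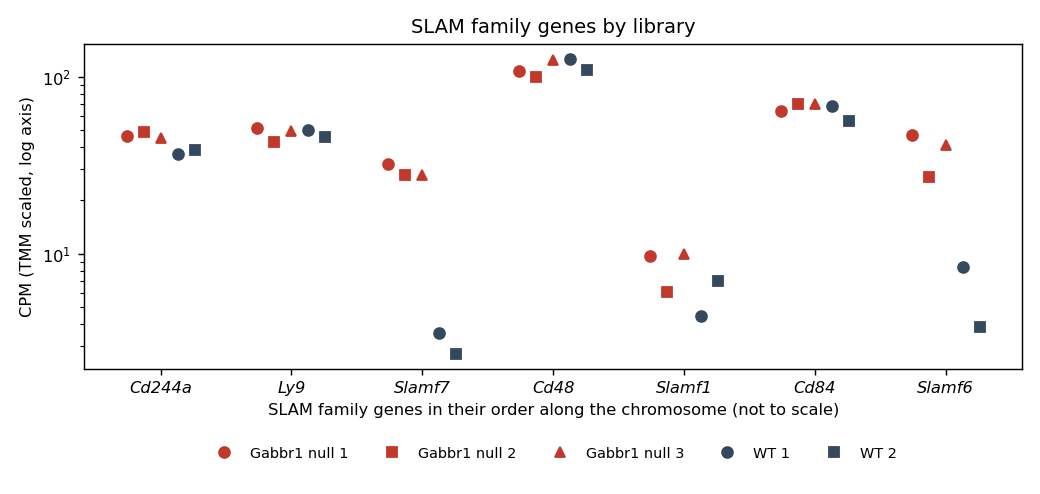
CPM (vertical, log axis) of the 7 tested SLAM receptor genes in their order along the chromosome, with 1 point per library, red for Gabbr1 null and dark blue for WT. Slamf7 and Slamf6 are higher in every null library, and Cd48 and Slamf1 overlap between the groups.

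Genes of the markers' ligands were low in these libraries. Flt3l, the FLT3 ligand gene, had 13.9, 9.50 and 10.5 CPM in null libraries and 11.9 and 16.4 CPM in WT libraries and missed the threshold (adjusted p = 0.623, edgeR). Kitl, the stem cell factor gene, had 1, 6 and 5 counts in null libraries and 0 in both WT libraries. Cd70, the CD27 ligand gene, had 1 count in each null library and 0 in both WT libraries, and neither gene was tested.

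Downstream of the receptors, 45 genes of KIT and FLT3 signalling (adaptors, kinases, phosphatases and STATs) were tested. In edgeR 0 were higher and 0 lower, as in DESeq2 and limma-voom. An unadjusted p under 0.05 was reached by 2 higher and 2 lower genes, with a median log2 fold change of 0.02. Of 9 genes of CD27 signalling, 0 were higher and 1 was lower in edgeR, where 2.15% and 0.334% of all genes tested were. Their median log2 fold change was -0.05. Before adjustment, 0 higher and 3 lower genes (Nfkb2, Relb and Map3k14) had p under 0.05 in edgeR, against 7.99% and 4.84% of all genes tested. Nfkb2, a subunit of the non-canonical NF-kB pathway, had 32.9, 30.0 and 30.5 CPM in null libraries, against 43.8 and 51.1 CPM in WT libraries. Nfkb2 fell by 0.61 log2 units (SE 0.14; adjusted p = 0.0349 in edgeR). The call was lost without null library 2, null library 3, WT library 1 or WT library 2 (edgeR adjusted p = 0.0849, 0.110, 0.0686 and 0.359).

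In the Ly6 cluster, 6 of 16 genes were tested, and 3 were higher and 0 lower, where 2.15% and 0.334% of all genes tested were. Ly6d, which marks B-lineage-biased lymphoid progenitors, had 19.5, 13.1 and 17.0 CPM in null libraries, against 5.42 and 4.70 CPM in WT libraries. Ly6d rose by 1.70 ± 0.25 log2 units (SE; adjusted p = 0.00271 in edgeR), which did not hold when WT library 1 or WT library 2 was left out (edgeR adjusted p = 0.0593 and 0.131). Lynx1 and Gpihbp1, which encode relatives of Sca-1 outside the gate, also rose. Gpihbp1 had 28, 18 and 23 counts in null libraries and 0 and 1 in WT libraries, and Lynx1 had 63, 41 and 54 against 16 and 4. Both passed the filter on low counts through the null libraries, which partly sets the direction of their calls. The Lynx1 call was lost without WT library 2 and the Gpihbp1 call without either WT library (edgeR adjusted p = 0.269, and 0.0914 and 0.111). Ly6e, the most abundant member, had 737, 537 and 721 CPM in null libraries and 595 and 580 CPM in WT libraries and missed the threshold (adjusted p = 0.693, edgeR). Among the sialomucins related to CD34, 0 of 6 were called in edgeR and limma-voom, 1 (Cd34) in DESeq2, and an unadjusted p under 0.05 was reached by 1 higher and 1 lower gene.

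Of 18 other surface markers of stem and progenitor cells, 11 had a positive and 7 a negative log2 fold change, with a median of 0.08. Procr, a marker of long-term stem cells, had 11.7, 12.7 and 12.1 CPM in null libraries, against 17.5 and 23.2 CPM in WT libraries, and missed the threshold (adjusted p = 0.0699, edgeR).

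Il7r, the receptor gene that marks common lymphoid progenitors, had 33.7, 25.7 and 24.9 CPM in null libraries, against 11.7 and 3.85 CPM in WT libraries. Il7r rose by 1.83 ± 0.33 log2 units (SE; adjusted p = 0.0119 in edgeR), which did not hold when WT library 2 was left out (edgeR adjusted p = 0.130). Fcgr3, an Fc receptor gene of myeloid progenitors, rose by 1.83 ± 0.43 log2 units (SE; adjusted p = 0.0468 in edgeR), and was lost in 5 of 12 alternative fits, among them the fit without null library 1 (edgeR adjusted p = 0.113).

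Markers of some other cell types differed with the genotype in the same libraries. Among T cell antigens that the gate should exclude, Cd3e and Cd8a had at most 2 counts per library. Cd4 had 170, 165 and 143 counts in null libraries and 150 and 188 in WT libraries, and Cd5 had 16, 13 and 20 counts in null libraries and 18 and 10 in WT libraries. Of 14 B-lineage markers, 13 were higher and 0 lower, and their summed level was 729 to 1297 CPM in null libraries and 94.7 and 216 CPM in WT libraries. Of 12 tested endothelial and stromal markers, 6 were higher and 0 lower, where 2.15% of all genes tested were called higher. Summed levels of this list were 406 to 475 CPM in null libraries and 280 and 322 CPM in WT libraries. Of the 6, Lepr had 0 counts in both WT libraries, Sparc 2 and 7, Cdh5 5 and 12, Kdr 5 and 14, and Cxcl12 3 and 18. Such genes passed the filter on low counts through the null libraries, which partly sets the direction of their calls. The B-lineage marker Ms4a1, with 3 and 2 WT counts, was another.

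Summed neutrophil markers were 2214, 591 and 135 CPM in null libraries 1, 2 and 3, against 146 and 109 CPM in WT libraries. Of the 8 that were tested none passed by edgeR, by DESeq2 or by limma-voom. An unadjusted edgeR p under 0.05 was reached by 7, each with a higher level in null, against 7.99% of all genes tested. Without null library 1, 3 of 7 tested neutrophil markers were higher in edgeR, where 248 genes were higher in all. Among the 3 were S100a9 and Ngp (edgeR adjusted p = 0.0411 and 0.0318), and both also passed without null library 3 (edgeR adjusted p = 0.00112 and 0.000561). Summed levels were 67.1 to 166 CPM in null and 53.1 and 65.9 CPM in WT for monocyte and dendritic cell markers, and 102 to 113 CPM in null and 68.1 and 66.1 CPM in WT for megakaryocyte markers. For T and NK cells they were 95.9 to 105 CPM in null and 94.3 and 112 CPM in WT, for mast cells and basophils 191 to 255 CPM in null and 180 and 225 CPM in WT, and for erythroid cells 4.68 to 39.4 CPM in null and 5.79 and 5.41 CPM in WT. In these 5 lists, 9, 7, 5, 7 and 3 members were tested. By edgeR 2, 1, 1, 2 and 0 members were higher and 0 were lower in each, where 2.15% and 0.334% of all genes tested were. By limma-voom 0, 0, 1, 1 and 0 members were higher. Here too some called genes passed the filter through the null libraries, such as Trbc1, with 3 and 1 WT counts, and Mcpt4, with 8 and 0. CD27, CD48 and SLAM receptors are also carried by lymphocytes, and CD34 and Sca-1 by endothelium. The part of such cells in the marker values was not tested. With the genes of other cells left out of the scaling and the fit, the log2 fold changes of Cd27, Cd34 and Flt3 were -0.42, -0.36 and -0.29, and 0 of the 7 genes passed. That fit keeps any reads that such cells gave to the markers themselves, so it cannot measure their part.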

How the data were processed

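Whole-number counts per gene were deposited by the authors for 3 Gabbr1 null and 2 WT libraries of sorted LSK cells, with no normalization. Per the labels' protocols, libraries were made from 3.6 to 5 ng of RNA with a kit for small inputs and probe-based depletion, and were read as pairs of 50 bases. The submitters' processing notes name mm10, featureCounts and STAR. Not given in the sources used here are versions, annotation release, strand setting and the handling of multi-mapping or duplicate reads.

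Of 39056 identifiers, 99.5% matched GENCODE M21 (mm10) with the version ignored, and 1 list entry matched no gene. Counts were filtered by group with filterByExpr, scaled by TMM and compared by edgeR's quasi-likelihood test (edgeR 4.0.16, R 4.3.3) on genotype alone, which left 3 residual degrees of freedom. Fold changes put null over WT, and standard errors and 95% intervals were derived from the F statistic. The smallest p of an exact permutation test with 3 against 2 libraries is 0.1, so none was used. DESeq2 1.42.0, limma-voom (limma 3.58.1), other scalings and filters, and leaving out each library were alternatives. List counts without null library 1 were added after the data were seen. The code was tested on simulated counts. Libraries of a group differed by more than sampling noise (chi-square per degree of freedom 8.21 to 13.1). Intervals cover the spread between libraries.

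The markers and gene lists were chosen with earlier results of these data known. Genes were named by rule: the 7 markers and Gabbr1, every list member that passed, in each list of other cells the 2 members of highest level, and for the 2 markers with the largest change the 3 genes of most similar course. The text gives a selection, and list members that did not pass are named after their values were seen. Promoters come from RefSeq on GRCm38.p6. Some list members that passed are not reported here.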

Additional observations from a re-analysis of the deposited data

How the results depend on the processing

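None of the 7 marker genes was called higher in any alternative. With no filter on low counts 1 was lower (Cd27), among 602 genes higher and 155 lower in all. DESeq2 called 2 lower (Cd27 and Cd34), and an adjusted p under 0.1 gave 1 lower (Cd27) and 81 genes lower in all. A filter of at least 1 CPM in every library gave 173 genes higher in all, against 289 higher and 45 lower in the reported fit. RLE and upper quartile factors, limma-voom and leaving out genes of other cells kept 0 markers called and both total counts within 1.5 times. Leaving out each library in turn gave 0 markers called, 32 to 316 genes higher and 0 to 51 lower. Omitting null library 3 left 15 genes lower, and omitting WT library 1 left 101 higher. Omitting WT library 2 left 32 higher and 0 lower in edgeR, with 339 lower at an unadjusted p under 0.05. In that setting DESeq2 gave 146 higher and 6 lower genes, and limma-voom gave 0 of either. Fits with a single WT library take its variation from the null libraries. The cause of these moves was not tested. The median log2 fold change of all genes was -0.004 with TMM, -0.008 with RLE and -0.015 with upper quartile factors. Of 37 named genes that passed, 9 passed in every alternative that tested them and 28 lost the call in at least 1, and no called gene turned direction. No paired analysis was possible because the labels give no replicate numbers: library numbers here follow the order of deposit and tie no null library to a WT library. Slamf1 had the fewest reads of the 7 markers, at 46 to 81 counts in null libraries and 36 and 49 in WT libraries.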
